A study of Homo sapiens with 11 samples.

Results

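The loci described here belong to 10 genes that drive or restrain the cell cycle: the cyclins CCND1, CCND3 and CCNE1, the kinases CDK2, CDK4 and CDK6, the inhibitors CDKN1A, CDKN1B and CDKN2A, and MYC. They were taken by name from 20056 protein-coding genes by a rule that uses no measured value. Earlier results of these data were known when the genes were chosen. Each locus is the RefSeq extent of the gene in GRCh38 (hg38) with 50 kb added on either side, which gave windows of 105 to 332 kb. Chromatin immunoprecipitation with sequencing was done in 92-1 cells, an established line grown from a uveal melanoma, the melanoma that arises inside the eye. All cells were treated for 4 h, either with the solvent DMSO or with FHT-1015, which blocks SMARCA4 (BRG1) and SMARCA2, the alternative ATPases that power BAF nucleosome remodelling. The antibodies recognised acetylated lysine 27 of histone H3 (H3K27ac), SMARCA4, MITF, TFAP2A (written AP-2 in the sample titles) and SOX10. Each of the 5 antibodies had 1 library in each of the 2 conditions, 10 in all, and an input library from DMSO-treated cells made up the 11 samples.

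D-type cyclins bind CDK4 and CDK6 and start the phosphorylation of the retinoblastoma protein, and cyclin E with CDK2 carries that step further until cells enter S phase. CDKN1A and CDKN1B hold cyclin-CDK complexes in check, CDKN2A encodes an inhibitor of CDK4 and CDK6, and MYC is a transcription factor of growth and division genes. Melanocytes and their tumours depend on the transcription factors MITF and SOX10, and TFAP2A acts beside them from the neural crest onward. H3K27ac is a mark of active regulatory DNA. In melanoma CDK2 is a known MITF target.

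With 1 library per group no test was possible, and every difference below is between 2 libraries. The lists held 33268 to 142667 peaks. The depth of the FHT-1015 library relative to the DMSO library of the same antibody ran from 0.854 (MITF) to 1.15 (SOX10). These depths were inferred from the peak lists and not counted from reads. The median peak had 8 to 27 reads at its summit, and the lowest median was that of MITF in FHT-1015. Between 57.9% (SOX10, FHT-1015) and 95.8% (TFAP2A, DMSO) of peaks had a q-value under 0.05. As a check of the label, H3K27ac lay within 1 kb of an end of 6 of 7 melanocytic genes, all but DCT, and of 1 of 11 genes of other cell types (BEST1), in both conditions.

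The 10 windows lost SOX10 peaks more than peaks of any other antibody. SOX10 peaks numbered 145 in DMSO and 74 in FHT-1015, a ratio of 0.510 beside 0.322 over the whole lists. H3K27ac peaks numbered 115 and 86, MITF peaks 109 and 93, TFAP2A peaks 180 and 164, and SMARCA4 peaks 165 and 164. The ratios were 0.748, 0.853, 0.911 and 0.994, beside 0.706, 1.04, 0.834 and 0.880 over the whole lists. The MITF number was lower at these loci and not over the whole list, which also holds peaks outside the window of any gene. Peaks are called strong here if their −log10 p reached 10. Strong SOX10 peaks numbered 66 and 17, strong MITF peaks 48 and 28, and strong TFAP2A peaks 93 and 64. H3K27ac had 61 and 54 of them, and SMARCA4 34 and 44. The ratios among strong peaks were 0.885 (H3K27ac), 1.29 (SMARCA4) and 0.688 (TFAP2A), beside 0.794, 0.951 and 0.6 over the whole lists. The MITF ratio among strong peaks was 0.583 at the loci and 0.409 over the whole lists, so that for strong peaks the whole list was the lower. The SOX10 ratio among strong peaks was 0.258, so it moved by more than 1.5 times with the threshold, and it was 0.117 over the whole lists.

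**Figure D1:**
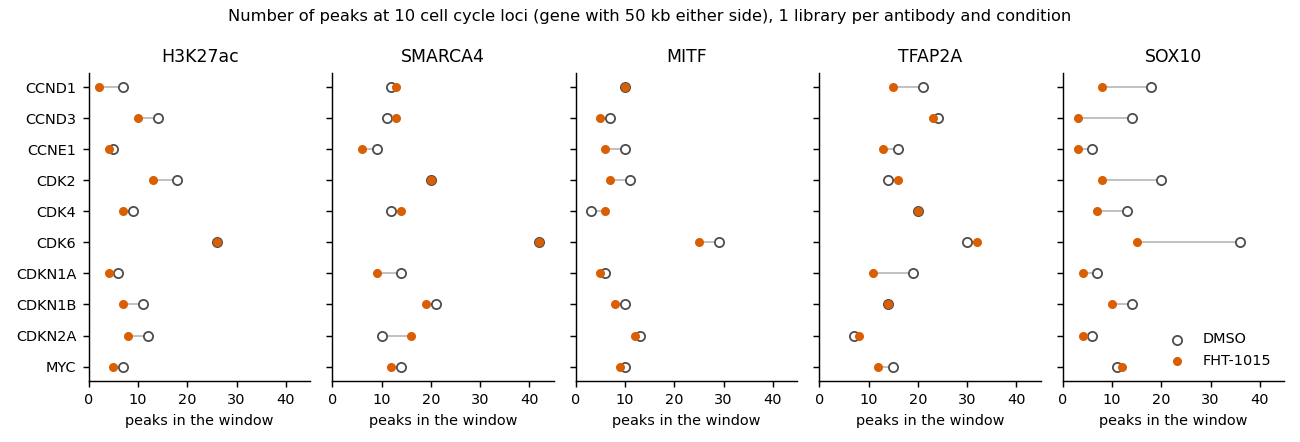
Number of peaks in the window of each gene (x axis) for each antibody, with DMSO as open circles and FHT-1015 as filled circles. SOX10 numbers were lower in FHT-1015 at 9 of 10 loci, with MYC (11 and 12) as the exception, while SMARCA4 numbers lay on both sides.

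Read per locus, SOX10 numbers were lower in FHT-1015 at 9 loci and higher at 1, H3K27ac numbers lower at 9 and equal at 1, and MITF numbers lower at 8, equal at 1 and higher at 1. TFAP2A was lower at 5, equal at 2 and higher at 3, and SMARCA4 lower at 4, equal at 2 and higher at 4. A window was called lower where the FHT-1015 number was at most 0.5 times a DMSO number of at least 5. Under that rule SOX10 was lower at 5 of 10 loci (CCND1, CCND3, CCNE1, CDK2 and CDK6), and 73.7% of the 14287 gene windows tested were. H3K27ac was lower at 1 of 10 (CCND1) beside 23.5% of gene windows. SMARCA4 was lower at 0 of 10 (8.54% of windows), MITF at 0 of 9 (14.6%) and TFAP2A at 0 of 10 (10.0%). No locus was at or above 2 times its DMSO number for any antibody among those with 5 or more DMSO peaks, and 0.240% (H3K27ac), 1.42% (SMARCA4), 1.86% (MITF), 1.13% (TFAP2A) and 0.0420% (SOX10) of gene windows were. The median window ratio for SOX10 was 0.519 over the 10 loci and 0.333 over all windows tested. For MITF it was 0.833 over the 9 loci tested and 0.857 over all windows tested. The lower MITF number was thus not particular to these loci.

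A DMSO peak counts here as retained if at least 1 bp of it lay under a peak of that antibody in FHT-1015. At the 10 loci 54 of 145 SOX10 peaks were retained, 37.2% (95% Wilson interval 29.8 to 45.3, which covers counting error over peaks only). The whole SOX10 list retained 18.3%, and peaks of the whole list with the same strength and position class retained 23.8%. For H3K27ac 86 of 115 were retained, 74.8% (66.1 to 81.8), beside 59.3% of the whole list. SMARCA4 retained 120 of 165, 72.7% (65.5 to 78.9), beside 52.0%, and TFAP2A 123 of 180, 68.3% (61.2 to 74.7), beside 54.9%. MITF retained 55 of 109, 50.5% (41.2 to 59.7), beside 36.2%. Matching for strength and position brought the whole-list shares to 64.2% (H3K27ac), 56.6% (SMARCA4), 40.9% (MITF) and 58.9% (TFAP2A). These matched shares include peaks outside the window of any gene, which were retained less. For SOX10 that was 13.3% beside 19.7% inside a window, and for SMARCA4 39.5% beside 55%. The pooled intervals lay above the matched shares for all 5 antibodies, but for H3K27ac and MITF that rested on single windows. Only the CDK2, CDK6 and MYC windows were left out in turn, so the weight of the other windows was not checked for any antibody. The matched shares were not recomputed for the windows that remained. Peaks within a window are not independent, so the intervals are no test of a difference. Without CDK6, a window left out after the values were seen, the intervals were 60.6 to 79.2 for H3K27ac and 39.3 to 60.7 for MITF, and without MYC, left out likewise, the H3K27ac interval began at 64.1, each reaching the matched share. The median share over loci was 81.7% for H3K27ac and 33.3% for SOX10, beside 64.7% and 21.4% over gene windows, and for MITF it was 42.9% beside 44.4%.

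**Figure D2:**
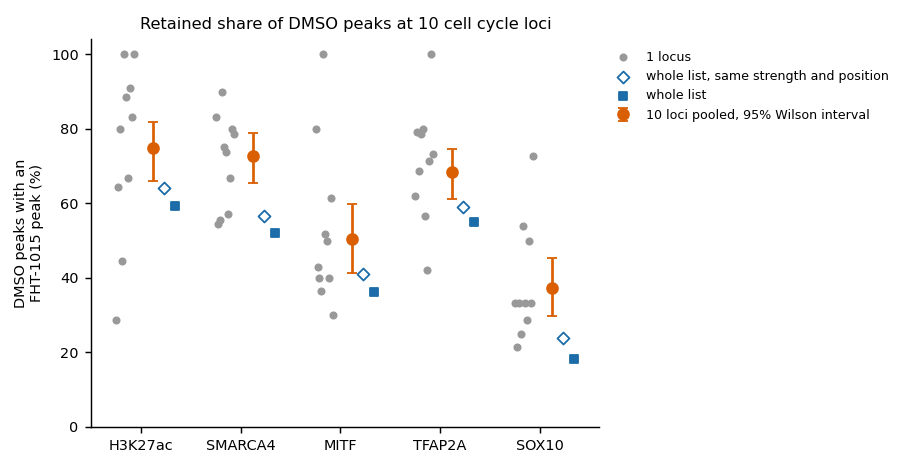
Share of DMSO peaks with an overlapping FHT-1015 peak, per antibody: grey points are single loci, orange points with bars the 10 loci pooled with the 95% Wilson interval, squares the whole list and diamonds the whole list matched for strength and position. The pooled shares (37.2% for SOX10 to 74.8% for H3K27ac) lay above both references, and the single loci spread widely on both sides.

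Covered length differed less than number for H3K27ac. Its peaks covered 156 kb of the windows in DMSO and 145 kb in FHT-1015, so fewer peaks covered nearly the same length. SMARCA4 covered 85.1 and 100 kb at almost equal numbers, and its mean length per peak was 515 and 610 bp. TFAP2A covered 90.4 and 90.8 kb, and MITF 45.4 and 39.6 kb. The covered ratios were 0.928 (H3K27ac), 1.18 (SMARCA4), 1 (TFAP2A) and 0.873 (MITF). Over the whole lists they were 0.764, 1, 0.835 and 0.847. The whole SMARCA4 lists had a number ratio of 0.880 at that covered ratio of 1, so longer SMARCA4 peaks were not particular to these loci. SOX10 covered 80.5 and 30.9 kb, a ratio of 0.384 beside 0.259 over the whole lists. With the authors' broad lists the H3K27ac peaks at the loci numbered 71 and 72, so the lower H3K27ac number held for the narrow lists only.

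Peaks within 1 kb of either end of any protein-coding gene were called boundary peaks, and all others distal. The boundary share retained was higher than the distal share for every antibody. SOX10 retained 24 of 43 boundary peaks (55.8%, interval 41.1 to 69.6) and 30 of 102 distal peaks (29.4%, 21.4 to 38.9). H3K27ac retained 89.2% of boundary and 67.9% of distal peaks, TFAP2A 89.7% and 62.4%, and MITF 70.4% and 43.9%. SMARCA4 retained 83.7% and 68.9%, and the interval of that difference (distal minus boundary, −26.8 to 0.762 percentage points) included 0. Across the whole lists that difference ran from −29.2 (SOX10) to −40.2 (SMARCA4) percentage points. At the 10 loci it was −14.9 for SMARCA4 and −21.2 for H3K27ac (interval −34.0 to −4.52), and neither interval reached the whole-list values of −40.2 and −39.0. The H3K27ac value depended on where the boundary was set: it was −4.82 with boundaries of 2.5 kb. The narrower gaps lay on the distal side, since 67.9% of distal H3K27ac peaks were retained beside 50.5% of the whole list and 68.9% of distal SMARCA4 peaks beside 44.8%. Distal peaks of the whole lists include those outside the window of any gene. Neither this nor peak strength was matched in the contrast.

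**Figure D3:**
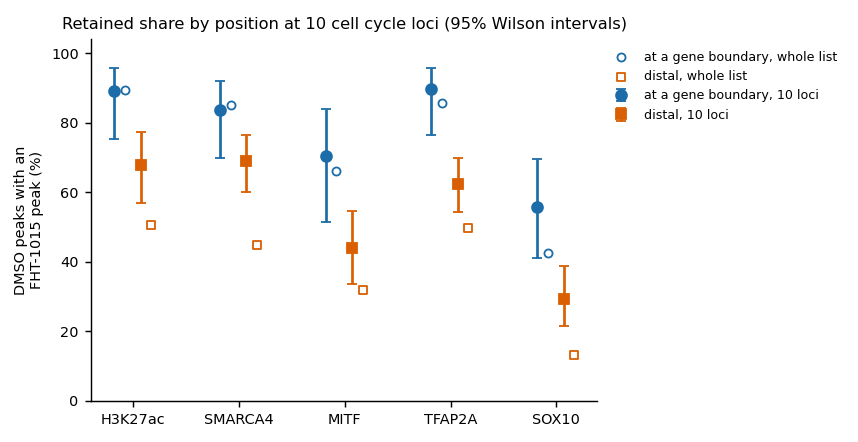
Retained share of DMSO peaks at a gene boundary (circles) and distal (squares) at the 10 loci with 95% Wilson intervals, with open symbols for the whole lists. Boundary peaks were retained more often for all 5 antibodies (55.8% and 29.4% for SOX10), and distal peaks at the loci lay above distal peaks of the whole lists.

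SOX10 peaks that shared a base with an H3K27ac peak in DMSO were retained in 52 of 107 cases (48.6%), and those without one in 2 of 38 (5.26%). The same shares over the whole list were 29.6% and 7.21%. The 2 kinds of peak differed in strength, with a median −log10 p of 11.6 and 6.01, and the part of strength in the difference was not tested. Of the 145 SOX10 peaks, 58 shared bases with both MITF and TFAP2A, 50 with all the other 4 antibodies, and 11 with none. Of those 50, 30 were retained. For MITF the shares were 65.8% with SOX10 (73 peaks, median −log10 p 13.5) and 19.4% without it (36 peaks, 5.57), beside 49.6% and 21.4% of the whole list. For SMARCA4 they were 86.3% with H3K27ac (median −log10 p 6.32) and 31.7% without it (4.43), beside 72.5% and 26.1%.

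To compare strength at a site, the reads at each peak's summit were recovered from its fold and p, and the FHT-1015 reads were divided by the DMSO reads and by the depth ratio of the 2 libraries. Local background was not subtracted. Intervals of this ratio are exact 95% intervals that cover counting error in the reads only, and no error of the inferred depths. Over the retained peaks of the 10 loci the median ratio was 1.34 for H3K27ac, 1.25 for SMARCA4, 1.08 for TFAP2A, 1.02 for MITF and 0.615 for SOX10. The whole-list medians were 1.2, 1.17, 0.938, 0.836 and 0.590. SOX10 reads were lower at 44 of 54 retained peaks (81.5%), beside 89.1% over the whole list. A DMSO peak was set against the FHT-1015 peak of highest −log10 p that touched it, so a shoulder could be paired with the summit of a merged peak. Among pairs whose FHT-1015 summit lay inside the DMSO peak, a restriction added after seeing the data, the medians were 1.19 for H3K27ac, 1.17 for SMARCA4, 0.994 for TFAP2A, 0.944 for MITF and 0.570 for SOX10. The whole-list medians were then 1.11, 1.09, 0.906, 0.813 and 0.576. The TFAP2A and MITF medians at the loci were thus above or below 1 depending on the pairing. The strongest 10% of DMSO peaks of the whole lists had medians of 1.2 for H3K27ac, 0.901 for SMARCA4, 0.514 for TFAP2A, 0.470 for MITF and 0.403 for SOX10. The strongest site of each window is described by name below. These sites were picked by their DMSO values alone, so their ratios can be too low. The intervals do not cover this, wherever a difference is set against counting error below. The paired summits lay up to 837 bp apart at these sites, except for H3K27ac at CCND1 (2842 bp) and CDK2 (4571 bp).

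**Figure D4:**
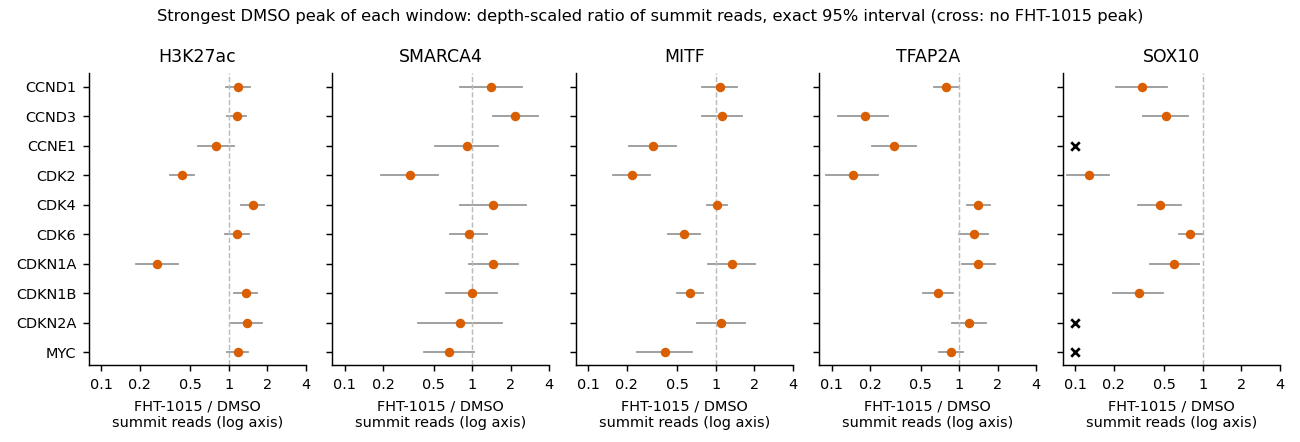
Depth-scaled ratio of summit reads, FHT-1015 over DMSO, on a log axis for the strongest DMSO peak of each window and antibody, with exact 95% intervals. A cross marks a strongest DMSO peak with no FHT-1015 peak (SOX10 at CCNE1, CDKN2A and MYC) and its position on the axis carries no value. The CDK2 window lay below 1 for all 5 antibodies, with the H3K27ac summits 4571 bp apart. The CDK4 window lay above 1 for every antibody except SOX10 (0.464). The intervals of SMARCA4 (0.797 to 2.62) and MITF (0.845 to 1.23) there included 1. In that window the SMARCA4 site lay inside MARCHF9, and the TFAP2A and SOX10 sites lay at TSFM, not at CDK4.

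Promoter sequences of the members were matched in RefSeq (GRCh38.p14). There were entries for 7 of the 10 genes with 11 promoters (CCND3 with 3, CDK6 and CDKN2A with 2 each, and CCNE1, CDK4, CDKN1A and CDKN1B with 1), and none for CCND1, CDK2 and MYC. The 250 bases before each start were searched on both strands for the E-box CACGTG, which MITF and MYC family proteins bind, the M-box core CATGTG, the SOX core words ACAAAG and ACAATG, and the AP-2 word GCCNNNGGC. Over 35116 RefSeq promoters of the same length 6.34%, 9.42%, 13.7%, 9.29% and 19.8% held these words, and they were found in 1, 1, 1, 1 and 0 of the 11. A match describes letters and not binding. Peaks were looked for in the same stretch with 50 bases after the start added. SOX10 peaks lay at 8 of the 11 in DMSO and 5 in FHT-1015, beside 42.2% and 21.5% of all promoters. SMARCA4 peaks lay at 6 and 9, beside 27.6% and 36.1%. H3K27ac peaks lay at 8 in both conditions (41.0% and 41.6% of all), MITF peaks at 6 in both (25.2% and 23.6%), and TFAP2A peaks at 6 and 8 (44.8% and 44.4%).

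Among the cyclins, SOX10 peaks numbered 38 in DMSO and 14 in FHT-1015, with 11 retained (28.9%, 17 to 44.8), and H3K27ac peaks 26 and 16. CCND1, which encodes cyclin D1, lies at chr11:69641156-69654474. H3K27ac peaks in its window numbered 7 in DMSO against 2 in FHT-1015, beside 12 and 13 of SMARCA4, 10 and 10 of MITF, 21 and 15 of TFAP2A, and 18 and 8 of SOX10. The 5 lost H3K27ac peaks were weak ones, the strongest with 18 summit reads (−log10 p 8.32) at chr11:69646427-69647906 inside the gene. The broad H3K27ac peak over the start of the gene had 154 summit reads in DMSO and 190 in FHT-1015 (ratio 1.17, 0.945 to 1.46), with the summits 2842 bp apart. TFAP2A at the same place, chr11:69639827-69641570, was the TFAP2A peak of highest −log10 p in the 10 windows, with 203 reads in DMSO and 153 in FHT-1015 (0.785, 0.633 to 0.974). Upstream, at chr11:69636202-69636985, SOX10 had 73 and 28 reads (0.335, 0.209 to 0.524), while MITF there had 90 and 82 (1.07, 0.781 to 1.45). At that site 1 factor was lower beyond counting error and the other was not. SOX10 was lost over the start itself (45 reads in DMSO), while a weaker peak just before it had 25 and 16 reads.

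CCND3, which encodes cyclin D3, spans chr6:41934933-42050035 and is read from high to low coordinates. Its window held 14 and 10 H3K27ac peaks, 11 and 13 of SMARCA4, 7 and 5 of MITF, 24 and 23 of TFAP2A, and 14 and 3 of SOX10, the lowest SOX10 ratio of the 10 loci (0.214). A site inside the gene at chr6:42009850-42010552 held all 5 antibodies in DMSO. TFAP2A had 144 summit reads there and 25 in FHT-1015 (0.181, 0.113 to 0.278), and the H3K27ac peak (34 reads) and the MITF peak (22 reads) at that site were lost. Another site inside the gene, chr6:41940246-41941675, moved the other way for SMARCA4, with 38 and 75 reads (2.15, 1.44 to 3.27). Over the outer promoter all 5 antibodies had peaks in DMSO and all but SOX10 in FHT-1015. The SOX10 peak there, chr6:42048431-42049451 with 38 reads, was itself retained, by a peak of 23 reads at chr6:42049228-42049468 that lies just outside the promoter stretch. The strongest SOX10 peak of the window, at chr6:42050007-42051067 near the end shared with TAF8, was also retained, with 68 and 40 reads (0.514, 0.339 to 0.770). The sequence before the outer start carries the SOX word on the opposite strand (CTTTGT) at 2 places. No other promoter of the members searched held a match to ACAAAG. It is shown on the gene's strand for chr6:42048689-42048938, with the matches in capitals.
CCND3: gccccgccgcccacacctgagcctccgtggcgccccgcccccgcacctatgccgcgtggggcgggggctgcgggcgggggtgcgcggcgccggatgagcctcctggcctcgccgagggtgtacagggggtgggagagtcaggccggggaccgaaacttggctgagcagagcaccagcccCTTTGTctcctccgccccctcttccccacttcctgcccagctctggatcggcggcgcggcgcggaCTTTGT

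CCNE1, which encodes cyclin E1, lies at chr19:29811991-29824312 with no other protein-coding gene in its window. The window held 5 and 4 H3K27ac peaks, 9 and 6 of SMARCA4, 10 and 6 of MITF, 16 and 13 of TFAP2A, and 6 and 3 of SOX10. Its strongest peaks of all 5 antibodies in DMSO lay together beyond the gene, around chr19:29842776-29844084. MITF had 112 and 31 summit reads there (0.324, 0.210 to 0.486), TFAP2A 118 and 35 (0.309, 0.206 to 0.454), and the SOX10 peak of 42 reads was lost. SMARCA4 had 30 and 25 reads at the site (0.908, 0.512 to 1.60) and H3K27ac 88 and 73 (0.790, 0.571 to 1.09). MITF and TFAP2A were thus lower there beyond counting error, and SMARCA4 and H3K27ac were not. The choice of the site by its DMSO strength was not corrected for. Just before the lower-coordinate end of the gene, where CCNE1 starts, MITF (25 reads) was lost, TFAP2A had 28 and 31 reads, and H3K27ac 69 and 112. The RefSeq promoter stretch itself held no peak of any antibody in either condition.

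Among the kinases, SOX10 peaks numbered 69 and 30 with 24 retained (34.8%, 24.6 to 46.6), TFAP2A peaks 64 and 68, and H3K27ac covered 72.8 and 73.5 kb. CDK2, the partner of cyclin E, lies at chr12:55966830-55972789. It is 120 bp from PMEL, a pigment gene that is read in the opposite direction, so peaks between them cannot be assigned to either gene. The window held 18 and 13 H3K27ac peaks, 20 and 20 of SMARCA4, 11 and 7 of MITF, 14 and 16 of TFAP2A, and 20 and 8 of SOX10. A site inside CDK2, chr12:55970410-55971404 by its SOX10 peak, held all 5 antibodies in both conditions. It had the lowest ratios among the strongest sites of the 10 windows for SMARCA4, MITF and TFAP2A, and for SOX10 among those that kept a peak. SOX10 had 225 and 33 summit reads (0.128, 0.0861 to 0.185), TFAP2A 156 and 22 (0.147, 0.0895 to 0.231), MITF 235 and 44 (0.219, 0.155 to 0.303), and SMARCA4 70 and 21 (0.327, 0.191 to 0.539). A single H3K27ac peak of 14.2 kb in DMSO ran across CDK2 and into PMEL (chr12:55959504-55973679, 277 reads). In FHT-1015 it was met by several narrower peaks, the strongest with 126 reads at chr12:55963763-55969136. That peak does not reach the DMSO summit, so its ratio (0.433, 0.348 to 0.537) compares 2 places. The FHT-1015 peak over the DMSO summit, chr12:55969391-55973651, had 100 reads.

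Around the shared start region of CDK2 and PMEL, SOX10 had a peak of 75 reads in DMSO at chr12:55964486-55967129 and none in FHT-1015. MITF at chr12:55965038-55966110, inside PMEL, had 194 reads in DMSO and a retained peak of 59 in FHT-1015, and a weak MITF peak just inside CDK2 had 15 and 12. TFAP2A at chr12:55965773-55967089 had 109 and 130 reads, and SMARCA4 at chr12:55966281-55967177 had 25 and 31. Of the SOX10 peaks, 6 touched CDK2 and 6 touched PMEL in DMSO, and 1 and 3 did in FHT-1015. Without the CDK2 window, a choice made after the values were seen, the retained share over the other 9 loci was 39.2% for SOX10 and 80.4% for H3K27ac.

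CDK4, a partner of D-type cyclins, lies at chr12:57747727-57752310 and is read from high to low coordinates, with 9 other genes in its window. The 250 bases before its start, chr12:57752311-57752560, hold 3 E-boxes and 1 M-box core (as CACATG). Neither word was found at the other members searched, and CCND1, CDK2 and MYC had no entry to search. They are shown on the gene's strand with these words in capitals.
CDK4: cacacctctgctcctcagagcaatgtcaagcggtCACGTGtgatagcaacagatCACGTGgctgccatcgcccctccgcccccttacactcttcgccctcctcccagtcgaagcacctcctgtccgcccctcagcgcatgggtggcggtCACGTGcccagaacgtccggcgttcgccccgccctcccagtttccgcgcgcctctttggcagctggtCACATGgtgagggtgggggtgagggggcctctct
The MITF peak over this sequence, chr12:57751704-57752803, was the highest MITF site of all 10 windows by summit reads. It had 243 reads in DMSO and 212 in FHT-1015 (1.02, 0.845 to 1.23), so MITF there did not differ beyond counting error. H3K27ac at this start had 155 and 249 reads (1.53, 1.25 to 1.88), TFAP2A 75 and 67, and SOX10 88 and 45. All 5 antibodies had peaks there in both conditions. The window held 9 and 7 H3K27ac peaks with all 9 retained, 12 and 14 of SMARCA4, 3 and 6 of MITF, 20 and 20 of TFAP2A, and 13 and 7 of SOX10. SMARCA4 covered 4.48 and 8.77 kb, the largest increase in covered length for SMARCA4 among the loci.

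CDK6, the other partner of D-type cyclins, spans chr7:92604921-92836573 and is read from high to low coordinates. Its window of 332 kb was the widest and held 163 of the DMSO peaks over all antibodies, most of them inside the gene. It held 26 and 26 H3K27ac peaks, 42 and 42 of SMARCA4, 29 and 25 of MITF, 30 and 32 of TFAP2A, and 36 and 15 of SOX10. Equal numbers did not mean the same sites: 31 of the 42 SMARCA4 peaks and 17 of the 30 TFAP2A peaks were retained, and 13 and 16 peaks of FHT-1015 had no DMSO counterpart. The strongest SOX10 peak of the window, chr7:92761316-92762373, had 187 and 171 reads (0.799, 0.645 to 0.988), lower by a margin just beyond counting error. Close by, at chr7:92759008-92759549, TFAP2A with 109 reads was lost, and the SMARCA4 peak there (41 reads) was lost too. MITF at chr7:92763455-92764208 had 158 and 76 reads (0.563, 0.423 to 0.745). The strongest lost SOX10 peak, chr7:92623417-92623958, had 57 reads in DMSO. At the upper-coordinate end, where the gene starts, 3 H3K27ac peaks of DMSO, with 117, 59 and 17 reads, were covered by 1 FHT-1015 peak with 193 reads, and 2 TFAP2A peaks with 129 and 109 reads by 1 with 136. The TFAP2A ratio, 1.30 (1.00 to 1.69), sets the 136 reads against the 109 of the DMSO peak of highest −log10 p. The inner of its 2 promoters had peaks of all 5 antibodies in both conditions and holds the word ACAATG in the 250 bases before the start, chr7:92833960-92834209, shown on the gene's strand with the word in capitals.
CDK6: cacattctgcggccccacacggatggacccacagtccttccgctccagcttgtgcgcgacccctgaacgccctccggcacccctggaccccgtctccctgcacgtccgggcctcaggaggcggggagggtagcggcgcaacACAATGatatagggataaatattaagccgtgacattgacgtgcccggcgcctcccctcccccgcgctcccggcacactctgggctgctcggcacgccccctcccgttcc

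Among the inhibitors, SOX10 peaks numbered 27 and 18 with 11 retained (40.7%, 24.5 to 59.3), H3K27ac peaks 29 and 19 with 24 of the DMSO peaks retained, and MITF peaks 29 and 25. The SOX10 intervals of cyclins, kinases and inhibitors overlapped, which is no test of a difference, and whether the groups differ was not tested. CDKN1A, a CIP/KIP inhibitor that p53 induces, lies at chr6:36676463-36687332. Its window held 6 and 4 H3K27ac peaks, 14 and 9 of SMARCA4, 6 and 5 of MITF, 19 and 11 of TFAP2A, and 7 and 4 of SOX10. Its TFAP2A share retained, 8 of 19, was the lowest of the 10 loci. At the RefSeq promoter, which lies inside this extent from chr6:36678464 on, all 5 antibodies had peaks in both conditions. Within 1 kb of the lower-coordinate end of the extent itself MITF, TFAP2A and SOX10 had no peak in either condition, and SMARCA4 had 3 peaks in DMSO and 0 in FHT-1015. TFAP2A at chr6:36678406-36680748 had 78 and 105 reads (1.40, 1.04 to 1.91), SMARCA4 38 and 51 (1.46, 0.942 to 2.29) and MITF 45 and 51 (1.33, 0.871 to 2.03). SOX10 at chr6:36680354-36680763 had 54 and 37 (0.598, 0.383 to 0.926). Beyond the gene, inside RAB44 at chr6:36726767-36730261, H3K27ac had 132 and 38 reads (0.274, 0.186 to 0.396), the lowest H3K27ac ratio among the strongest sites. The FHT-1015 peak did not reach the DMSO summit, 568 bp away, and the SOX10 peak of 35 reads there was lost.

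CDKN1B, the other CIP/KIP inhibitor here, lies at chr12:12717368-12722369 between GPR19 and APOLD1. Its window held 11 and 7 H3K27ac peaks, 21 and 19 of SMARCA4, 10 and 8 of MITF, 14 and 14 of TFAP2A, and 14 and 10 of SOX10. The widest H3K27ac peak measured 5.18 kb in DMSO and 11.7 kb in FHT-1015, while the median width was 942 and 681 bp. For H3K27ac 10 of 11 DMSO peaks were retained, and the covered lengths were 19.7 and 18.9 kb. H3K27ac at its strongest site had 164 and 232 reads (1.35, 1.10 to 1.66). TFAP2A at the start of the gene, chr12:12716726-12717561, had 141 and 92 (0.680, 0.517 to 0.891). A site inside GPR19, chr12:12683875-12684931, held MITF with 207 and 111 reads (0.628, 0.494 to 0.794) and SOX10 with 78 and 28 (0.314, 0.196 to 0.488). SOX10 was lost at chr12:12704653-12704936, where it had 57 reads in DMSO. Of its SOX10 peaks 7 of 14 were retained, and only CDK4 (7 of 13) and MYC had a higher share among the 10 loci.

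CDKN2A spans chr9:21967752-21995324, is read from high to low coordinates and has 2 RefSeq promoters. The outer one serves the ARF transcript and the inner one the transcript of the INK4 inhibitor. All 5 antibodies had peaks at the outer promoter in both conditions, and none had a peak at the inner one in either condition. Neither stretch held any of the words searched, and both are shown on the gene's strand, the outer for chr9:21995325-21995574 and the inner for chr9:21974858-21975107.
CDKN2A outer: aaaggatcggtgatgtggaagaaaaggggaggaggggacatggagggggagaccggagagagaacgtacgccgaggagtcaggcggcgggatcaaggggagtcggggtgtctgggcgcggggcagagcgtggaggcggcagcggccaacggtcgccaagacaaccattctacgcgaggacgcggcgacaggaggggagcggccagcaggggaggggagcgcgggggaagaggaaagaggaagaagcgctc
CDKN2A inner: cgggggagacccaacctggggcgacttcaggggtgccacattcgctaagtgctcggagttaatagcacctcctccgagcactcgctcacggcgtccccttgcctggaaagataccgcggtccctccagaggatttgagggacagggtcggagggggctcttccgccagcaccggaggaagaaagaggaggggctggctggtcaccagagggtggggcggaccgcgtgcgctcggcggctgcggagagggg
At the outer promoter H3K27ac had 87 and 126 summit reads (1.38, 1.04 to 1.83), TFAP2A 86 and 98 (1.19, 0.880 to 1.61), and MITF 47 and 44 (1.10, 0.710 to 1.69). The strongest SOX10 peak of the window lay inside the gene at chr9:21970985-21971600 with 34 reads and was lost, while SMARCA4 there had 19 and 14 (0.803, 0.372 to 1.69). The window held 12 and 8 H3K27ac peaks, 10 and 16 of SMARCA4, 13 and 12 of MITF, 7 and 8 of TFAP2A, and 6 and 4 of SOX10. All 7 TFAP2A peaks were retained, and the SMARCA4 ratio of 1.60 was the highest of the loci. The 10 SMARCA4 peaks found only in FHT-1015 all had a −log10 p under 10, and strong SMARCA4 peaks numbered 4 and 2.

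**Figure D5:**
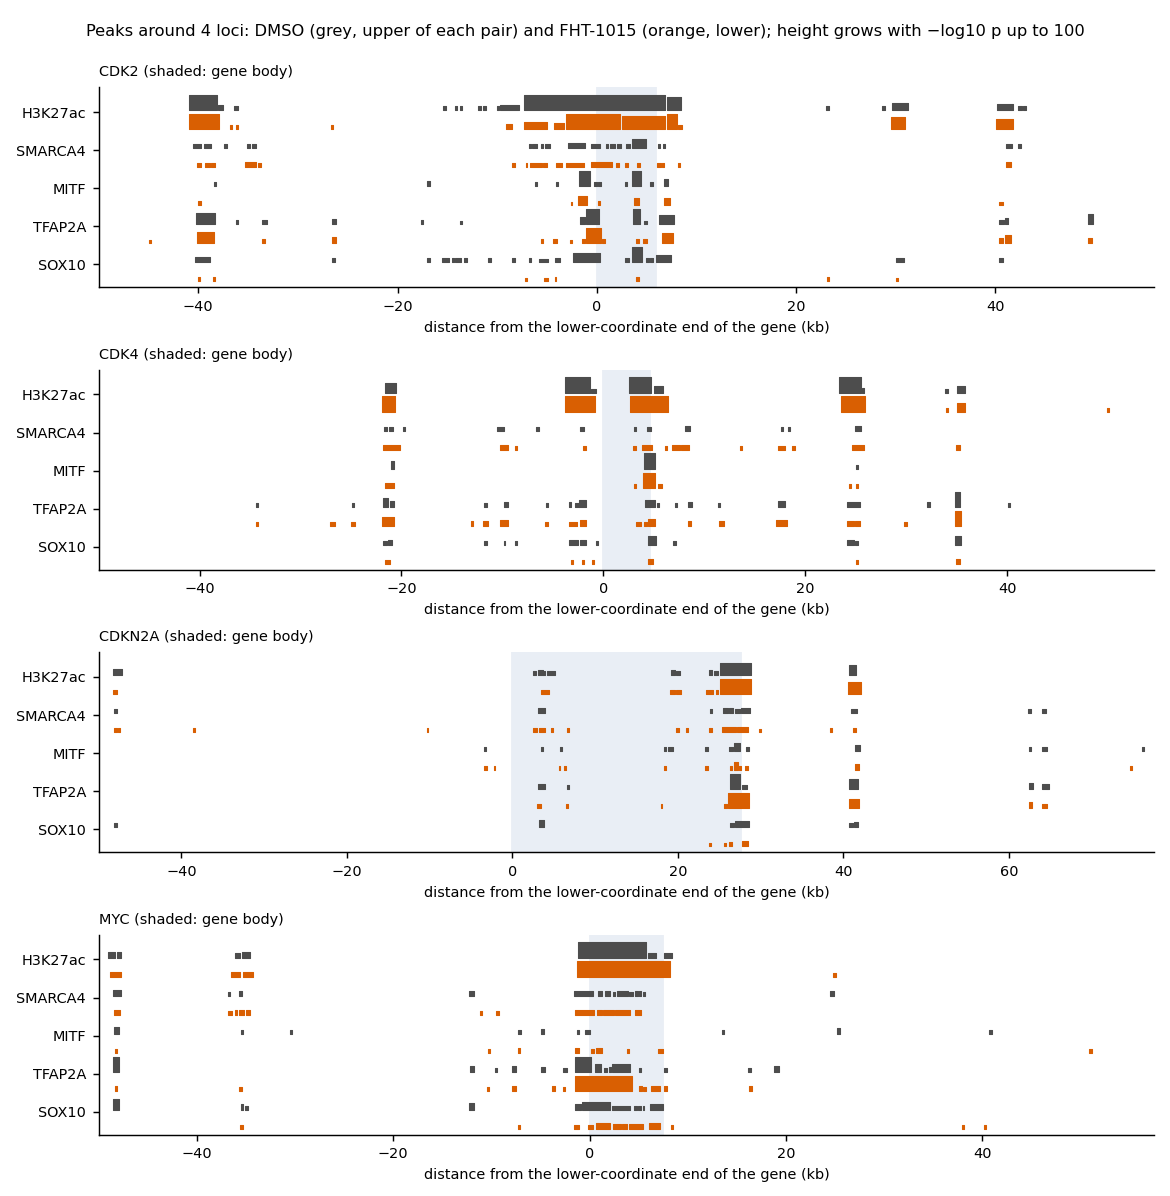
Peaks around CDK2, CDK4, CDKN2A and MYC by distance from the lower-coordinate end of the gene in kb, with the gene body shaded, DMSO in grey above FHT-1015 in orange for each antibody, and bar height growing with −log10 p up to 100. At CDK2 the 14.2 kb H3K27ac peak is divided in FHT-1015, at CDK4 the MITF bar over the start stays, at CDKN2A peaks gather at the outer end, and at MYC the SOX10 bar at the left edge has no partner.

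MYC lies at chr8:127735434-127742951 with no other protein-coding gene in its window. It was the locus at which SOX10 numbers did not drop: 11 peaks in DMSO and 12 in FHT-1015, with 8 of the 11 retained (72.7%, 43.4 to 90.3). That interval overlapped those of all the other 9 loci, and among strong SOX10 peaks the numbers were 6 and 4. The retained SOX10 peaks had a median ratio of 1.16, and reads were lower at 3 of the 8. At the start of the gene SOX10 had 64 and 54 reads, TFAP2A 186 and 153 (0.857, 0.688 to 1.07) and H3K27ac 206 and 254 (1.17, 0.973 to 1.42). The widest H3K27ac peak measured 6.92 and 9.52 kb, and all 7 DMSO peaks were retained, while 1 of the 5 FHT-1015 peaks had no DMSO counterpart. The far edge of the window went the other way. At chr8:127686866-127687515 SOX10 had 99 reads in DMSO, the strongest SOX10 peak of the window, and no peak in FHT-1015. MITF at that site had 67 and 23 reads (0.402, 0.239 to 0.654) and SMARCA4 58 and 35 (0.657, 0.419 to 1.02). The other antibodies numbered 14 and 12 (SMARCA4), 10 and 9 (MITF, 3 retained) and 15 and 12 (TFAP2A). Without MYC the SOX10 ratio over the other 9 loci was 0.463.

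The same rule was applied to 33 further genes of the cell cycle (other cyclins and kinases, the E2F and retinoblastoma families, other inhibitors, ubiquitin ligase parts, mitotic kinases and MYC partners). SOX10 numbers were lower at 23 of 30 tested (76.7%), beside 73.7% of all windows. H3K27ac was lower at 6 of 22 (27.3%, beside 23.5%), MITF at 4 of 29 (13.8%, beside 14.6%), SMARCA4 at 2 of 24 (8.33%, beside 8.54%) and TFAP2A at 2 of 32 (6.25%, beside 10.0%). These shares lay near the background of all genes. No share of all gene windows called for at least 2 antibodies is given here. Whether the genes named next stand out from other genes therefore cannot be told. AURKA, a mitotic kinase, was lower for 3 antibodies, with 12 and 4 H3K27ac, 10 and 5 TFAP2A and 11 and 4 SOX10 peaks. CDK1, the mitotic CDK, had 5 and 1 H3K27ac, 11 and 5 SMARCA4 and 8 and 1 SOX10 peaks. SKP2, part of the ligase that marks CDKN1B for degradation, had 8 and 4, 12 and 6, and 7 and 1 for those 3 antibodies. MYCL, a relative of MYC, had 8 and 1 H3K27ac peaks and 5 and 0 for both MITF and SOX10. Lower for 2 antibodies were CCNE2, CCNH, CDKN1C and RBL1. FBXW7, part of the ligase that degrades cyclin E and MYC, was higher for MITF (7 and 16 peaks) and lower for SOX10 (9 and 4).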

How the data were processed

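Fixed, sonicated chromatin of 92-1 cells was immunoprecipitated and sequenced, per the labels' protocols. BWA, SAMtools, Picard and MACS2 and the build hg38 are named in the submitters' processing notes, and the caller's settings are not given in the sources used here. The authors deposited 14 peak lists, 10 narrow (used as the main data) and 4 broad (H3K27ac and SMARCA4), each from 1 library. Deposited by the authors for each peak were its fold, a ratio over the local background, and its −log10 p and −log10 q, with which peaks of 1 list were described and ranked. The score that the authors deposited was left aside.

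Peaks were taken where they touched a window. Covered length is that of merged peaks clipped to the window. Summit reads x and background λ were inferred from fold = (x + 1)/(λ + 1) and a Poisson tail for p. x was whole, within 0.002, for 100% of peaks with −log10 p up to 290 to 3 digits, in the SOX10 FHT-1015 list after division by 0.890. Relative depth was inferred as the lowest λ of a list over its shortest peak length, set against the same value of the SOX10 FHT-1015 list. For that list the inverse of 0.890 was taken. Overlap, covered length, boundary calls and the recovery of whole reads were tested on simulated data. The steps particular to the SOX10 FHT-1015 list and the depth estimate were not. Strength matching used 10 deciles of −log10 p within a list.

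Groups came from the sample titles. Picked per window and antibody were the DMSO peak of highest −log10 p with its FHT-1015 counterpart (the overlapping peak of highest −log10 p), the strongest lost peak, and the strongest FHT-1015-only peak of at least 10. Not all of these are described in the text. Further peaks at gene ends and shared sites were chosen after their values were seen. Of the other cell cycle genes, those called for at least 2 antibodies were named. The members and lists were chosen with earlier results of these data known. Alternatives were a −log10 p of at least 10, 50% overlap, windows of 10 and 100 kb, boundaries of 2.5 kb and broad lists. Leaving out the CDK2, CDK6 or MYC window, and keeping only pairs whose FHT-1015 summit lay inside the DMSO peak, were added after seeing the data. The input library and a genome sequence were not used here, so exons, introns and sequences outside RefSeq promoters were not analysed here. Python 3.11.15, numpy 2.4.6, pandas 2.3.3, scipy 1.17.1 and matplotlib 3.10.9 were used.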

Additional observations from a re-analysis of the deposited data

How the results depend on the processing

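No paired analysis was possible because the labels give no replicate numbers and each group had 1 library. Of 124 recomputed values over the 10 loci, 102 kept their direction and stayed within 1.5 times (ratios) or within the counting interval (shares and differences). So did all those without the CDK2 or CDK6 window, both left out after seeing the data. Without MYC, left out likewise, the SMARCA4 number ratio was 1.01 and the TFAP2A covered ratio 0.988. The intervals of the distal minus boundary differences are wide: H3K27ac was −4.82 with boundaries of 2.5 kb, and SOX10 −11.9 and SMARCA4 −26.5 among strong peaks. When only peaks with −log10 p from 10 up entered either list, the number ratio was 1.29 for SMARCA4 and 0.258 for SOX10, the TFAP2A covered ratio was 0.917 and the TFAP2A distal minus boundary difference −38.2 points. The retained shares were then 86.9% (H3K27ac), 64.7% (SMARCA4), 59.1% (TFAP2A) and 19.7% (SOX10). Strong DMSO peaks set against every FHT-1015 peak were retained at 98.4%, 94.1%, 77.1% (MITF), 83.9% and 54.5%. Asking for 50% of the peak gave 66.1%, 63.0% and 23.4% for H3K27ac, SMARCA4 and SOX10, and a SOX10 difference of −6.34 points. Broad lists gave an H3K27ac number ratio of 1.01, windows of 10 kb a SMARCA4 ratio of 1.06, and windows of 100 kb a TFAP2A covered ratio of 0.977. Of 99 values of single loci, 69 kept their direction within 1.5 times, 18 moved and 12 turned direction. Among strong peaks these were H3K27ac at CCNE1 (1.33), CDK2 (1.29) and CDKN1A (1.33), SMARCA4 at CDKN1B (1.5), CDKN2A (0.5) and MYC (2), TFAP2A at CCNE1 (1.2), CDK2 (0.875), CDK6 (0.588) and CDKN2A (0.6), and SOX10 at MYC (0.667). In windows of 100 kb it was TFAP2A at CCNE1 (1.04). Pairs with the FHT-1015 summit inside the DMSO peak gave median summit ratios of 0.944 (MITF) and 0.994 (TFAP2A). The causes were not tested.

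Differences between 2 libraries hold culture, immunoprecipitation and depth together, and these cannot be told apart from the treatment. A lost peak is one the caller did not list at this depth, not proof of absence, which bears most on MITF in FHT-1015. Windows can hold peaks that serve other genes.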

Other observations

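The background reads inferred at the DMSO peaks differed between the loci. CDKN2A had the lowest median of the 10 loci for H3K27ac (2.60 reads), SMARCA4 (2.68), MITF (2.07), TFAP2A (2.59) and SOX10 (2.95), each under the whole-list median (4.45, 3.74, 2.75, 2.80 and 3.93). MYC had the highest for H3K27ac (8.00), SMARCA4 (7.33), TFAP2A (6.58) and SOX10 (8.54), and CCND3 for MITF (6.21). A peak of the same fold needs more reads where the background is higher. What set the background at each locus was not tested. The number of peaks per 100 kb of window, over all 5 antibodies, ran from 32.5 at CCND3 to 78.3 at CDK2 in DMSO and from 25.1 at CCND3 to 60.4 at CDK2 in FHT-1015.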
